A study of Mus musculus with 36 samples.

Results

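Ephrins and their Eph receptors, semaphorins with their plexin and neuropilin receptors, Slits with their Robo receptors, and netrins with their Unc5 receptors are the classical guidance genes of growing axons and migrating cells. The guidance genes described here are all probes of the array whose gene symbol names an ephrin (Efna or Efnb), an Eph receptor (Epha or Ephb), a semaphorin, a plexin, Nrp1 or Nrp2, a Slit, a Robo receptor, an Unc5 receptor or a netrin. The array carried 155 such probes of 64 genes among 45281 probes of 30869 symbols. A probe was kept when its detection p-value, which sets it against the negative-control beads of the same array, was under 0.01 on at least 1 array, and 87 guidance probes of 52 genes were kept among 21712 probes of 15556 symbols.

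Ephrins sit in the membrane of one cell and bind Eph receptors on its neighbour, so that both cells can be signalled to, and this contact signalling sharpens boundaries between groups of cells such as somites. Secreted semaphorins act mostly through a complex of a neuropilin and a plexin, secreted Slits through Robo receptors and netrins through receptors that include the Unc5 proteins, and many of these signals repel the cell that receives them. In the embryo several of them also guide blood vessels and the movement of mesoderm and neural crest cells.

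RNA came from microdissected regions of wild-type outbred MF1 mouse embryos, and each array held 1 pool of 6 to 74 pieces of a single region, 36 arrays of 16 regions. At E7.5, the headfold stage, there were an anterior region (A, 3 arrays), a posterior region (P, 2) and a proximal posterior region (PP, 2). At E8.5, with 2 to 5 somites, 3 arrays each held the caudal lateral epiblast (CLE) and the node-streak border (NSB), and 2 each the rostral node (RN), the rostral end (St1) and the caudal end (St5) of the streak. For CLE alone at that stage the mesoderm and endoderm beneath the epiblast were removed, while the other regions were taken whole. The chordoneural hinge (CNH), a tail bud region, was taken at E9.5 (22 to 25 somites, 2 arrays), E10.5 (32 to 35 somites, 2), E11.5 (40 to 45 somites, 3), E12.5 (50 to 55 somites, 2) and E13.5 (60 to 63 somites, 2), and tissue just posterior to the hinge (P-CNH) at E9.5, E10.5 and E11.5 (2 arrays each). Replicates were pools, so the p-values below measure the spread between pools as labelled, and which embryos were shared between pools is not given. In batch 1 both arrays of a region held the same number of pieces, 45 at E8.5 and 17 at E10.5. Their correlations over all kept probes were 0.994 or 0.995. Whether these were separate pools or 1 pool put on both arrays is not given. In the latter case their spread would be technical only. Within batch 2 the A and P pools of the same replicate number held the same number of pieces, as did the E9.5 CNH and P-CNH pools numbered 1, and in batch 1 each replicate number was a BeadChip of its own.

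The arrays differed in how much signal stood above background. The number of probes detected ran from 10814 on E13.5 CNH replicate 2 and 11062 on E8.5 CLE replicate 1 to 16256 on E8.5 St1 replicate 2, and the number of guidance probes detected from 35 to 58. Between replicates, the correlation over all kept probes was lowest in the E13.5 CNH (r = 0.858) and the E11.5 P-CNH (0.859) and highest in the E9.5 CNH (0.997). These are correlations across genes, which are not independent replicates. The labels place the arrays in 3 batches of 12. Batch 1 held both arrays of RN, St1, St5, the E10.5 CNH and the E10.5 P-CNH and NSB replicates 1 and 2, so that only NSB replicate 3, in batch 3, linked its regions to the other batches.

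Most guidance gene families were represented in these tissues. Of the ligands, 4 of 5 ephrin-A genes, 3 of 3 ephrin-B genes, 17 of 19 semaphorins and 2 of 3 Slits were detected on at least 1 array. Of the receptors, 7 of 9 EphA genes, 5 of 5 EphB genes, 5 of 9 plexins, 2 of 2 neuropilins, 4 of 4 Robo genes and 3 of 4 Unc5 genes were. The 12 genes detected on no array were Efna2, Epha6, Epha10, Sema3g, Sema4c, Plxna1, Plxna3, Plxna4, Plxnb3, Slit1, Unc5d and Ntn4. Ntn4 was the 1 netrin among the 64 genes, and probes under the older names Ntn2l, Nrp, Plxn2, Plxn6-pending and Unc5h3 fell outside the rule on symbols and were not analysed here, although the pair of Ntn2l probes, for a further netrin, were detected on 36 and 21 arrays and those of Nrp on 18 and 11. Of the kept genes, 16 were detected on all 36 arrays by their brightest probe.

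Across the 16 regions, 55 of the 87 guidance probes (63.2%), from 36 genes, differed in limma's moderated F test at an adjusted p of at most 0.05, where 35.6% of all kept probes did. Both shares contain probes that were kept because 1 region was bright, so they describe the kept probes and no more. The fitted regional level of a guidance probe, in log2 intensity, spanned a median of 2.30 from its lowest to its highest region, against 1.47 over all kept probes, with regions that did not detect the probe included in both. By family, the median span was 2.93 for the semaphorins, 2.87 for the Slits, 2.72 for the EphA receptors, 2.66 for the ephrin-B ligands, 2.28 for the Unc5 receptors, 2.17 for the Robo receptors, 1.98 for the ephrin-A ligands, 1.96 for the neuropilins, 1.67 for the EphB receptors and 1.30 for the plexins. A gene with several probes is described here by its brightest probe, and 33 genes were called in this test by that probe.

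**Figure D1:**
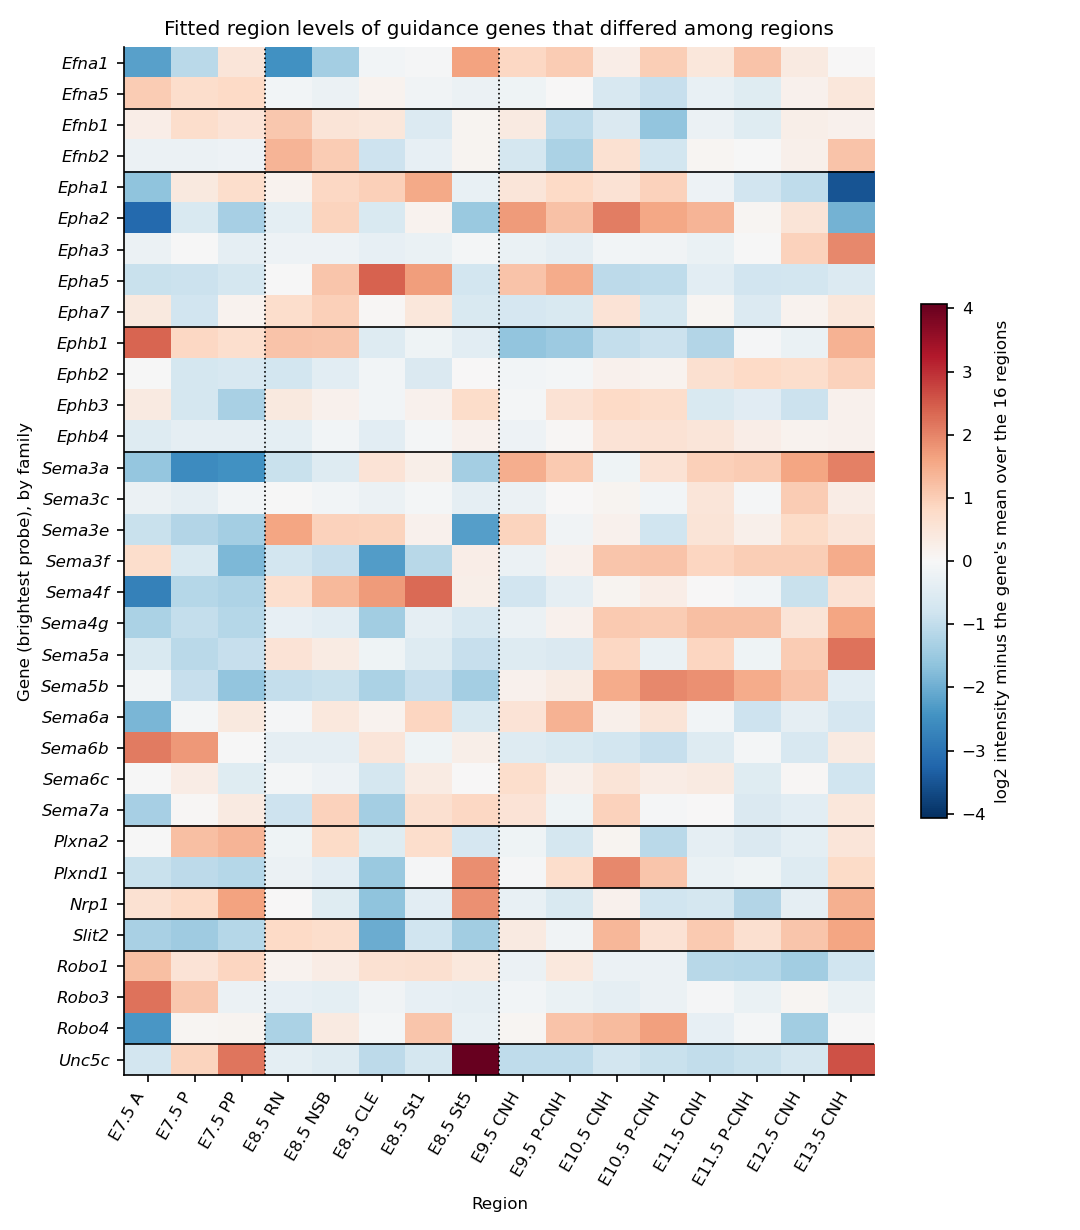
Fitted log2 intensity of the 33 guidance genes whose brightest probe differed among regions (one line per gene, ordered by family) in the 16 regions (columns), as the difference from the gene's own mean, with red above and blue below it. Unc5c stands out in E8.5 St5 and, less so, in E13.5 CNH, and the E13.5 CNH column holds the highest level of 7 of the genes.

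The regions in which these genes peaked were spread over the series. The E13.5 CNH had the highest fitted level of 7 called genes (Sema3a, Sema3f, Sema4g, Sema5a, Slit2, Epha3 and Ephb2), and it was also the highest region of 15.2% of all kept probes. E7.5 A had the highest level of 5 (Efna5, Sema6b, Ephb1, Robo1 and Robo3, against 6.89% of all kept probes), the E10.5 CNH of 4 (Sema7a, Epha2, Ephb3 and Plxnd1, 2.99%) and E8.5 RN of 3 (Efnb1, Efnb2 and Sema3e, 3.45%). E8.5 St5 led for Efna1, Unc5c and Nrp1 (5.75%), and the E10.5 P-CNH for Sema5b, Ephb4 and Robo4 (4.96%). The CLE led for a single called gene, Epha5 (5.39%).

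The largest moderated F belonged to receptors and secreted ligands alike. Unc5c, a receptor through which netrins repel cells, had F = 58.3 (adjusted p = 5.68e-12), with its highest level in St5 and detection in E7.5 P and PP, St5 and the E13.5 CNH only. Epha5, a receptor for ephrin-A ligands, followed with F = 56.7 (7.29e-12) and was highest in CLE. Slit2, the ligand that keeps axons from crossing the midline, had F = 45.3 (5.48e-11) and a fitted span of 3.62 between CLE and the E13.5 CNH. The next by F were Sema3a (41.8), the ephrin-A ligand Efna1 (35.0), the Slit receptor Robo1 (21.0), the semaphorin co-receptor Nrp1 (19.6), Sema3f (18.6, by its less bright probe) and Ephb1 (18.4).

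**Figure D2:**
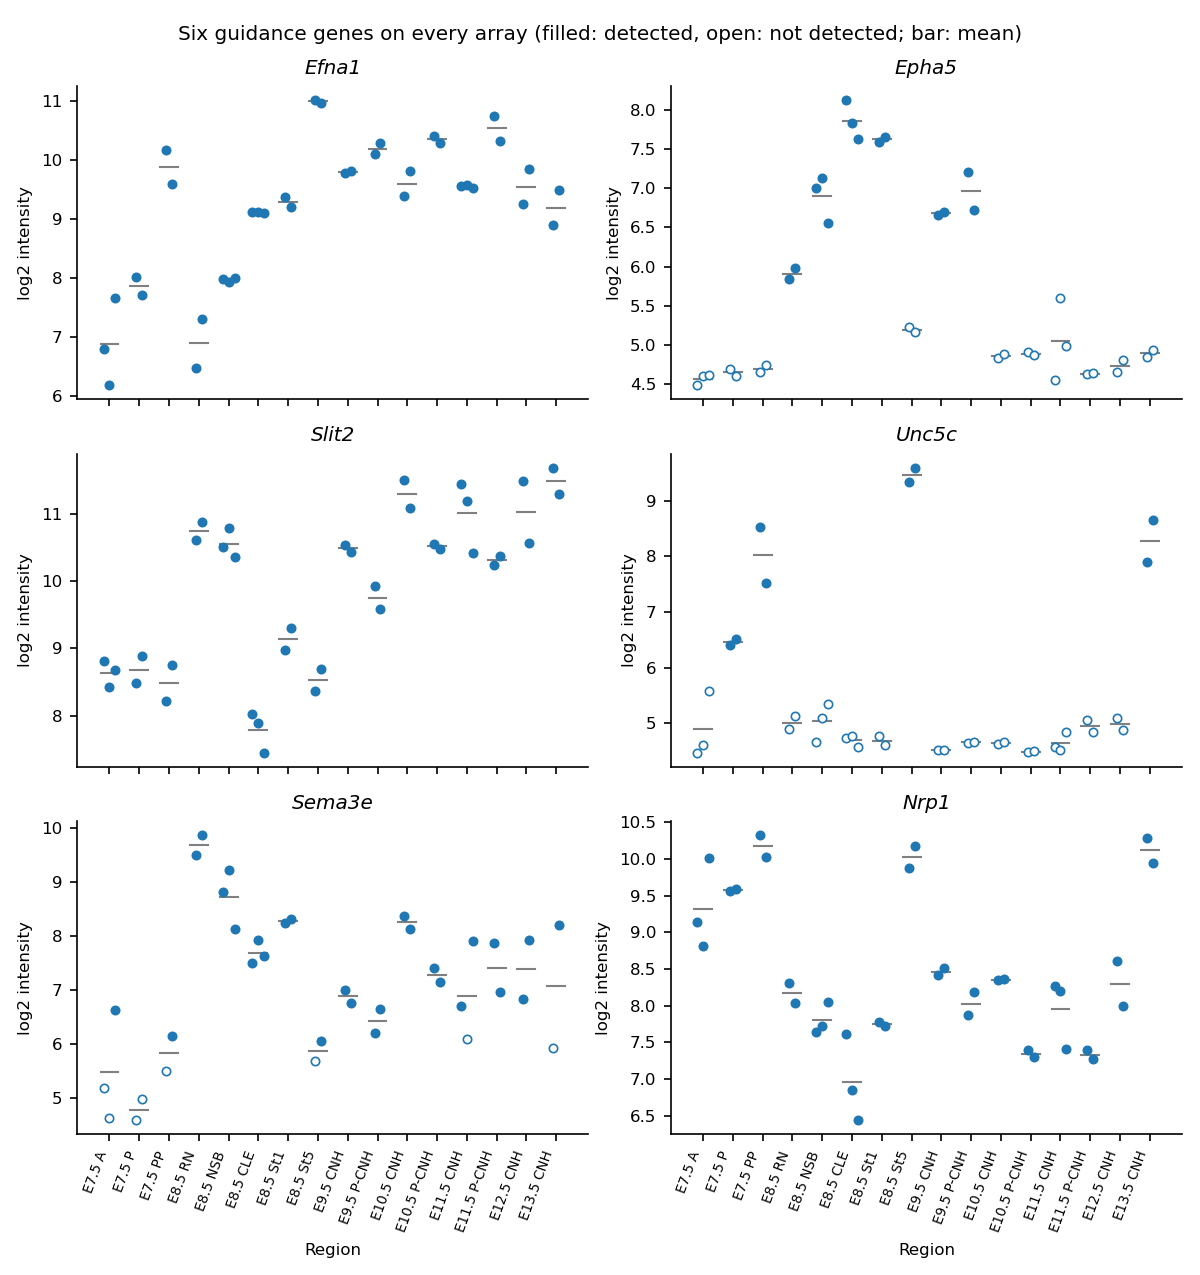
Log2 intensity (y axis) of Efna1, Epha5, Slit2, Unc5c, Sema3e and Nrp1 on each array, by region (x axis), with filled points for arrays on which the probe was detected, open points where it was not, and bars at the region's mean. Epha5 was detected in RN, NSB, CLE, St1 and the E9.5 tail bud and on no array from E10.5 on, and Unc5c was read at 9.33 and 9.59 in St5 while no other E8.5 array detected it.

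At E7.5 the anterior region, which is fated to become neural tissue, was compared with the posterior region. The ephrin-A receptors Epha1 and Epha2, the semaphorin Sema6a and the receptors Robo4 and Unc5c were lower anteriorly, and Ephb1 was higher. Of the 87 guidance probes, 3 (3.45%) were called higher in A and 10 lower, where 1.21% and 1.52% of all kept probes were. Here and below, called means an adjusted p, over all kept probes, of at most 0.05 together with a fold change of at least 1.5. The median log2 difference was 0.06 over the guidance probes and 0.04 over all probes.

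Among the ligands, Efna1, an ephrin-A tethered to the membrane, read 6.80, 6.19 and 7.66 on the A arrays and 8.02 and 7.72 on the P arrays. Its A arrays all lay below both P arrays, a 2.18-fold difference (log2 -1.12, SE 0.285, adjusted p = 0.0318 in limma). Sema6a, a transmembrane semaphorin that signals through A-type plexins, read 7.43, 7.25 and 6.82 in A and 9.44 and 8.78 in P. It was lower on every A array than on either P array, 3.44-fold (log2 -1.78, SE 0.377, adjusted p = 0.00735), and of its other kept probes 2, undetected on all A arrays, were called (each at least 1.61-fold, fitted -1.91 and -1.67) and 1 was not (-1.28). Sema4f, of the transmembrane class 4, was detected on no A array (4.72, 4.76 and 4.89) and on 1 of the P arrays (6.00 and 6.55). The undetected P array cannot be ranked against the A arrays. By the means, P was 1.16-fold higher, no strict bound since a P array did not detect it (fitted log2 difference -1.58, SE 0.384, adjusted p = 0.0226). A fold given as at least, here and below, sets the mean of the bright group against that of the dim group. Each dim array is taken at the higher of its own value and the lowest signal detected on that array. An undetected array of the bright group keeps its own value, and then the fold is no strict bound.

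Among the receptors, Robo4, best known from endothelium, read 6.54, 6.74 and 7.54 in A and 9.05 and 9.73 in P. The A arrays were all lower, 5.48-fold (log2 -2.45, SE 0.362, adjusted p = 1.43e-04). Epha1, a receptor for ephrin-A ligands, read 9.29, 9.04 and 9.43 in A and 11.26 and 11.33 in P. It was 4.13-fold lower in A with no overlap (log2 -2.05, SE 0.537, adjusted p = 0.039). Epha2, a receptor that Efna1 binds, was not detected on the A arrays (4.60, 4.83 and 5.15) and read 7.41 and 7.18 in P. It was at least 2.36-fold lower in A (fitted log2 -2.54, SE 0.667, adjusted p = 0.039). Unc5c was likewise undetected in A (4.47, 4.61 and 5.58) and read 6.40 and 6.52 in P. That made it at least 1.32-fold lower (fitted log2 -1.68, SE 0.274, adjusted p = 4.76e-04).

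Receptors that were higher anteriorly came from 3 families. Ephb1, a receptor for ephrin-B ligands, read 9.80, 9.94 and 10.14 in A and 8.44 and 8.82 in P. All A arrays lay above both P arrays, 2.89-fold (log2 1.53, SE 0.388, adjusted p = 0.0313). Epha7 read 6.31, 5.33 and 6.78 in A, where 2 of 3 arrays detected it, and was undetected at 4.70 and 5.19 in P. The undetected A array cannot be ranked against the P arrays. By the means, the difference was 1.06-fold, no strict bound since an A array did not detect it (fitted log2 1.17, SE 0.303, adjusted p = 0.0354). Robo3, which lets commissural axons cross the midline, read 6.88, 6.15 and 7.92 in A and 5.67 and 5.99 in P, where 1 of 2 arrays detected it. Every A array lay above the P array that detected it (fitted log2 1.13, SE 0.309, adjusted p = 0.0499), and Robo3 was detected in no other region.

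Within batch 2 alone, A minus P was -2.65 for Robo4, -2.16 for Epha1, -2.10 for Epha2, -1.73 for Sema6a (adjusted p = 0.0605), -1.49 for Unc5c, -1.26 for Efna1, -1.17 for Sema4f (0.0605), 1.25 for Ephb1, 0.66 for Epha7 (0.449) and 0.57 for Robo3 (0.414). The Robo4 and Unc5c calls held with each of the 36 arrays left out in turn. Of the others, the calls ended for Efna1 without A replicate 1 (log2 -1.16, adjusted p = 0.0856), A replicate 2 (-0.80, 0.151), P replicate 1 (-0.98, 0.284) or P replicate 2 (-1.27, 0.0666), for Sema4f without A replicate 1 (-1.61, 0.0718), A replicate 3 (-1.51, 0.0687), P replicate 1 (-1.87, 0.0503) or P replicate 2 (-1.28, 0.208), and for Sema6a without P replicate 1 (-1.46, 0.171), its dimmer probes included (-1.55, 0.129 and -1.25, 0.382), the last also without A replicate 1 (-1.64, 0.1) or A replicate 3 (-1.61, 0.0706). For Ephb1 they ended without A replicate 3 (1.24, 0.133), P replicate 1 (1.35, 0.282) or P replicate 2 (1.72, 0.0691), and for Epha7 without A replicate 1 (1.07, 0.171), A replicate 3 (0.86, 0.156) or P replicate 1 (0.93, 0.376). A dimmer Epha1 probe, undetected in A, was also called (a fitted -1.48, 0.00467), but not within batch 2 (-1.08, 0.11) or without P replicate 1 (-1.17, 0.148). The remaining kept Epha1 probes were not called. Their fitted levels were lower in A too, at -1.32 against 1.56 in P and -1.53 against 0.86. The call of the brightest Epha1 probe ended without any 1 of 20 arrays (all of batch 1, all of A and P, both of the E9.5 CNH and E11.5 CNH replicate 3), with log2 differences from -1.92 to -2.13 and an adjusted p of up to 0.196. Epha2 was lost in 22 such runs, which were those without an A or P array, RN aside any array of batch 1, an E9.5 or E12.5 array or E11.5 CNH replicate 3 (-2.44 to -2.63, up to 0.246). Robo3 was lost in 31, all but those without A replicate 2, CLE replicate 1, NSB replicate 3 or an E11.5 P-CNH array, and was 0.68 without A replicate 3 (0.123) and 0.98 without P replicate 1 (0.366). The count of 13 called guidance probes became 6 without A replicate 1, 7 without A replicate 3, 4 without P replicate 1 and 7 without P replicate 2.

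The A minus P calls were also set against 8 other settings of the analysis, under all of which those of Robo4, Unc5c and the brightest Sema6a probe held. Without a batch term the calls ended for Efna1 (log2 -0.98, adjusted p = 0.142), Epha2 (-2.43, 0.061), Sema4f (-1.48, 0.122), Ephb1 (1.33, 0.152) and Epha7 (1.19, 0.0712). Without background correction they ended for Efna1 (-0.73, 0.061), Epha2 (-1.41, 0.103), Sema4f (-0.83, 0.141), Epha7 (0.60, 0.0622), Robo3 (0.66, 0.145) and the Sema6a probe at -1.67 (-0.86, 0.0543). With all probes of the array tested and no detection filter they ended for Epha1 (-2.05, 0.091), Epha2 (-2.54, 0.0962), Epha7 (1.17, 0.055), Ephb1 (1.53, 0.0613), Robo3 (1.13, 0.0808) and that Sema6a probe (-1.67, 0.0566). Epha7 was also not called with cyclic loess normalisation (1.00, 0.0579) or a random BeadChip effect (1.07, 0.0595), Ephb1 not with the replicate number as a block (1.45, 0.0594), and Robo3 not with cyclic loess (1.00, 0.326) or the replicate block (1.04, 0.0839). The alternatives chosen after seeing the data left out the 2 arrays with the fewest detected probes (E13.5 CNH replicate 2 and CLE replicate 1), or those and the next 2, and the first of them ended the Robo3 call (1.09, 0.0531).

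Some markers of other cell types moved with this contrast. Of the neural list, 2 of 6 tested genes were higher in A (Otx2 by 2.47 log2 and Six3), and its summed intensity was 3820, 6810 and 7320 on the lowest, median and highest A array and 1500 and 1780 in P. Of the paraxial mesoderm list, 3 of 5 were lower (Tbx6 by a fitted -5.16, undetected in A, with Dll1 and Meox1), with sums of 269 to 354 in A and 4490 to 4550 in P. Of the posterior streak and lateral mesoderm list, 3 of 6 were lower (Evx1 by -4.63, and Mixl1 and Foxf1a by a fitted -3.18 and -2.49, both undetected in A), with sums of 384 to 775 in A and 2290 and 3100 in P. T (-2.18) and Apob (-2.14) were lower as well, and Shh (2.14) and Sox9 (1.29) higher. In bulk samples fewer cells of a type and less RNA per cell cannot be told apart, and the part of cell composition in the guidance gene differences was not tested.

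The proximal posterior region, which contains progenitors of lateral mesoderm, was then set against the posterior region of the same stage. Efna1 was higher in PP, and so was Unc5c by 1 of its probes. Among the 87 guidance probes, 2 (2.30%) were called higher, where 0.391% of all kept probes were, and 0 were called lower in limma, where 0.401% were. Over guidance probes the median log2 difference was 0.04 and over all probes 0.01. Efna1 read 10.17 and 9.60 in PP and 8.02 and 7.72 in P. Both PP arrays lay above both P arrays, 3.03-fold (log2 1.60, SE 0.347, adjusted p = 0.0257). For Unc5c the brightest probe read 8.53 and 7.52 in PP and 6.40 and 6.52 in P. Its groups did not overlap either, but its difference was not called (log2 1.25, SE 0.334, adjusted p = 0.0938), while another probe, at 8.46 and 7.34 in PP and 5.88 (undetected) and 6.39 in P, was (fitted 1.81, SE 0.423, adjusted p = 0.0418).

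PP lay wholly in batch 3 and P wholly in batch 2, so no within-batch value exists and the contrast rests on the batch term of the model. The Efna1 call ended without P replicate 1 (log2 1.75, adjusted p = 0.0585), P replicate 2 (1.46, 0.106), PP replicate 1 (1.32, 0.353) or E11.5 CNH replicate 3 (1.49, 0.0546), and when a random BeadChip effect replaced the batch term (1.48, 0.113) or the replicate number was a block (1.53, 0.0798). Without the 2 arrays with the fewest detected probes neither call of this comparison remained (Efna1 1.52, 0.0561, the dimmer Unc5c probe 1.65, 0.0572), and the 1 probe called there was another. The call of the dimmer Unc5c probe ended without any 1 of 26 arrays (all of batch 1, P, E9.5 and E12.5, the E11.5 CNH, CLE replicates 1 and 2, and PP replicate 1, without which it was 1.25 with an adjusted p of 0.569), whereas its brightest probe was called without A replicate 3 (1.39, 0.014) or PP replicate 2 (1.74, 0.00877) and fell to 0.75 without PP replicate 1. Of the other settings, 4 of 8 ended the call of the dimmer Unc5c probe (no background correction 1.15, 0.076, the BeadChip effect 1.35, 0.351, no filter 1.81, 0.0671, and the replicate block 1.91, 0.073), and 3 brought a call of the brightest (cyclic loess 2.14, 5.45e-04, no batch term 1.57, 0.0116, and a ComBat-type adjustment 1.26, 0.00727). The count of 2 called probes became 11 without A replicate 3, 1 without any array of batch 1, E9.5 or E12.5 or E11.5 CNH replicates 1 and 2, 3 without A replicate 2 or PP replicate 2, and 0 without P replicate 1, P replicate 2, PP replicate 1 or E11.5 CNH replicate 3. Of the posterior streak and lateral mesoderm list 2 of 6 genes were higher in PP (Hand1 by a fitted 2.37, undetected in P, and Mixl1 by 1.98), and of the visceral endoderm list 2 of 7 (Afp by 2.65 and Rbp4 by 3.57, both undetected in P), with summed intensities of 18000 and 37700 in PP and 6070 and 10800 in P. Meox1 (-2.21) and the neural gene Otx2 (-3.38) were lower in PP. Their part in the Efna1 and Unc5c differences was not tested.

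At E8.5 each of RN, St5 and CLE was set against the mean of the remaining E8.5 regions, each weighted equally, and these 3 comparisons share all their arrays. The rostral node is a source of notochord. The secreted ligands Slit2 and Sema3e and the membrane ligand Efnb2 were higher in RN, and Efna1 and the receptors Epha5 and Robo4 were lower. Of the 87 guidance probes, 5 (5.75%) were called higher and 4 (4.60%) lower, where 1.88% and 0.368% of all kept probes were. The median log2 difference was -0.12 over guidance probes and -0.03 over all.

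Slit2 read 10.61 and 10.88 in RN and from 7.45 over a median of 8.83 to 10.78 on the other 10 arrays. The RN arrays were level with the NSB arrays (10.51, 10.78 and 10.36) and above all others, and the difference was 3.23-fold (log2 1.69, SE 0.233, adjusted p = 5.61e-05). A pair of further Slit2 probes, detected on 4 and 2 of the other 10 arrays, gave a fitted 1.88 (0.0249) and 1.44 (0.0314). Sema3e, a secreted semaphorin that binds Plxnd1 without a neuropilin, read 9.5 and 9.87 in RN and from 5.69 over 8.04 to 9.23 elsewhere. RN lay above every other E8.5 array, 1 of which did not detect Sema3e (fitted log2 1.64, SE 0.352, adjusted p = 0.00823). Efnb2, the ligand that marks arterial endothelium and also bounds somites, read 8.05 and 8.42 in RN and from 4.61 over 6.82 to 8.01 elsewhere. It was higher without overlap (fitted log2 1.38, SE 0.337, adjusted p = 0.0248), with the NSB next (7.77, 8.01 and 7.82) and no CLE array detecting it. Here and below, no fold is given where only some arrays of the dimmer group detected the gene.

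Efna1 went the other way, at 6.48 and 7.31 in RN and from 7.94 over 9.13 to 11.02 on the other arrays. RN was below them all, 5.57-fold (log2 -2.48, SE 0.269, adjusted p = 2.24e-06). Robo4 read 7.55 and 7.43 in RN and from 8.37 over 9.18 to 9.97 elsewhere. It too was lowest in RN with no overlap, 2.94-fold (log2 -1.56, SE 0.342, adjusted p = 0.0104). Epha5 read 5.84 and 5.98 in RN and from 5.16 over 7.36 to 8.12 elsewhere. RN lay below NSB, CLE and St1 and above St5, where Epha5 was undetected, and the difference was called (fitted log2 -1.14, SE 0.209, adjusted p = 0.00159).

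Within batch 1, where RN can be set against NSB, St1 and St5 only, the differences were 1.31 for Slit2, 1.91 for Sema3e, 1.06 for Efnb2, -2.45 for Efna1, -1.61 for Robo4 and -0.69 for Epha5, all called. The E8.5 and late hinge comparisons could not be fitted without NSB replicate 3. The calls of Efna1 and of the brightest Slit2 probe held without each of the other arrays in turn, and the dimmer Slit2 probes were lost without either RN array (1.65 to 2.11, adjusted p up to 0.47, and 1.26 to 1.62, up to 0.553) or NSB replicate 2 (1.84, 0.0741 and 1.28, 0.143), one also without NSB replicate 1 (1.91, 0.0605) and one without St5 replicate 1 (1.42, 0.0565) or St1 replicate 1 (1.41, 0.0583). Those of Sema3e (log2 1.83, adjusted p = 0.0561 and 1.45, 0.245) and Robo4 (-1.62, 0.115 and -1.50, 0.189) ended without RN replicate 1 or RN replicate 2, that of Efnb2 also (1.57, 0.117 and 1.20, 0.493) and without NSB replicate 1 (1.32, 0.0887), and that of Epha5 without RN replicate 1 (-1.07, 0.0631) or with cyclic loess normalisation (-1.03, 0.0792). A dimmer Epha5 probe, called lower in RN as well (fitted -0.92, 0.0299, with overlap and 5 of the other 10 arrays detected), was not called within batch 1 (-0.55, 0.0733), without St5 replicate 1 (-0.89, 0.0589), St1 replicate 1 (-0.87, 0.0607), NSB replicate 1 (-0.92, 0.0823), NSB replicate 2 (-0.92, 0.0787), RN replicate 1 (-0.72, 0.725) or RN replicate 2 (-1.11, 0.0804), without background correction (-0.55, 0.0561) or a batch term (-0.46, 1), with cyclic loess (-0.80, 0.299) or with the BeadChip effect (-0.59, 0.392). Efnb2 was also not called with cyclic loess (1.20, 0.113) or without a batch term (1.53, 0.221), and of the dimmer Slit2 probes neither was without the filter (1.88, 0.0584 and 1.44, 0.0636), one not without a batch term (1.55, 0.051) and the other not with the replicate block (1.44, 0.0536). The 9 called probes became 2 without RN replicate 1, 3 without RN replicate 2 and 6 without NSB replicate 1 or NSB replicate 2.

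Of the notochord and node list, 5 of 6 genes were higher in RN (Shh by 4.01, Chrd by 2.51, Nog by 2.28, Foxa2 by 2.18 and Noto by 2.17), with summed intensities of 10600 and 12800 in RN and from 2950 over 6480 to 14300 elsewhere, most of it from T. Of the blood list 3 of 6 were higher (Hbb-y, Hbb-bh1 by 3.69 and Hba-x by 3.21), at sums of 3080 and 5810 against 175 to 2680. Of the neural list 3 of 6 were higher (Olig3 by 3.22, Nkx6-1 by 1.53 and Otx2 by 1.25), at sums of 1180 and 1340 against 203 to 682. Meox1 (2.54), Sox9 (2.40) and Sox18 (1.73) were higher too, and Mixl1 (-2.92), Evx1 (-2.53) and Tbx6 (-1.40) were lower. The part of these tissues in the guidance gene differences was not tested. Among other genes of the guidance pathways, 3 of 32 tested were higher in RN, the repulsive ligand Rgma (1.27), Flrt3 (1.41), which binds Unc5 receptors, and the adhesion molecule Nrcam (2.19), and none was called lower in limma.

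**Figure D3:**
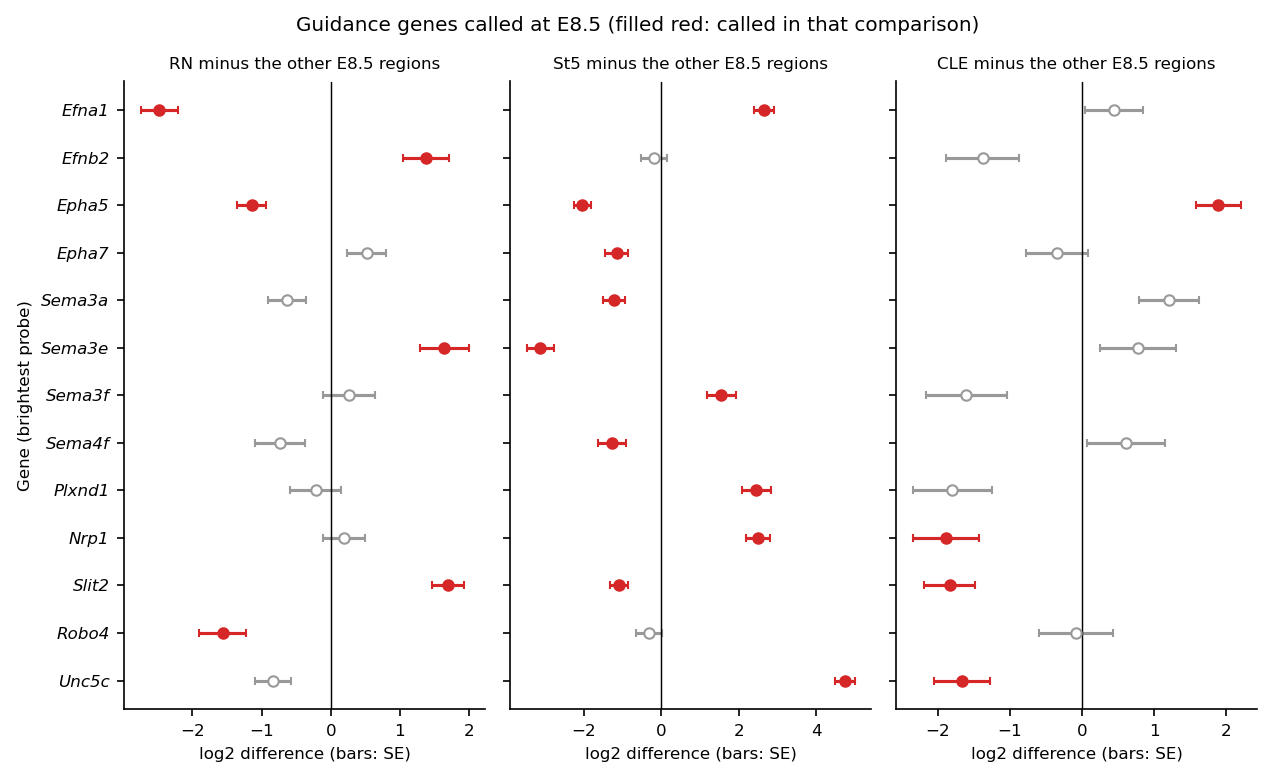
Log2 differences (x axis, dots with bars of 1 SE) of 13 guidance genes (y axis) for RN, St5 and CLE, each minus the mean of the remaining regions of that stage, with filled red points where limma called the difference and open grey points where it did not. Efna1 sits at -2.48 in RN and 2.65 in St5, and Sema3e at 1.64 in RN and -3.13 in St5.

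The caudal end of the streak gives rise to lateral and ventral mesoderm. Unc5c, Nrp1 and Plxnd1 were higher there, with the ligands Efna1 and Sema3f, and Sema3e, Slit2, Sema3a and Epha5 were lower. Among the 87 guidance probes, 10 were called higher in St5 and 9 (10.3%) lower, where 2.73% and 2.74% of all kept probes were. Over guidance probes the median log2 difference was -0.01 and over all probes 0.00.

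Unc5c read 9.33 and 9.59 in St5 and was detected on none of the other 10 arrays, where its values ran from 4.58 over 4.77 to 5.34. It was at least 11.3-fold higher in St5 (fitted log2 4.73, SE 0.259, adjusted p = 3.53e-11), and its other probes, likewise undetected elsewhere, gave a fitted 4.47 and 1.56. Nrp1, a co-receptor for class 3 semaphorins and for vascular endothelial growth factor, read 9.87 and 10.18 in St5 and from 6.44 over 7.72 to 8.31 elsewhere. It was 5.64-fold higher without overlap (log2 2.5, SE 0.303, adjusted p = 5.70e-06). Plxnd1, the receptor of Sema3e, read 8.52 and 8.99 in St5 and from 5.71 over 6.64 to 7.55 elsewhere. It was higher, again with no overlap, though 1 of the other arrays did not detect it (fitted log2 2.45, SE 0.368, adjusted p = 8.81e-05). For Nrp2, the co-receptor preferred by Sema3f, a dimmer probe was detected at E8.5 in St5 alone (7.03 and 7.47, with 4.45 to 5.41 elsewhere). That probe was at least 2.43-fold higher (fitted log2 2.11, SE 0.330, adjusted p = 1.38e-04), while the brightest Nrp2 probe was not called (0.63, adjusted p = 0.298).

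Among the ligands, Efna1 read 11.02 and 10.98 in St5 and from 6.48 over 8.55 to 9.38 elsewhere. Both St5 arrays lay above all others, 6.28-fold (log2 2.65, SE 0.269, adjusted p = 4.42e-07). Sema3f, a secreted semaphorin, read 9.45 and 9.74 in St5 and from 6.70 over 8.33 to 8.78 elsewhere. It was 2.90-fold higher without overlap (log2 1.54, SE 0.375, adjusted p = 0.0122), and by its other probe, undetected on 2 CLE arrays, the fitted difference was 1.70. Sema3e, the ligand of Plxnd1, read 5.69 and 6.06 in St5, where 1 of 2 arrays detected it, and from 7.5 over 8.29 to 9.87 elsewhere. Both St5 arrays lay below all others (fitted log2 -3.13, SE 0.352, adjusted p = 1.93e-06). Sema3a, which repels cells through Nrp1 and A-type plexins, read 6.60 and 6.70 in St5 and from 6.97 over 7.73 to 8.72 elsewhere. It was 2.33-fold lower without overlap (log2 -1.22, SE 0.279, adjusted p = 0.00708).

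Slit2 read 8.36 and 8.69 in St5 and from 7.45 over 9.83 to 10.88 elsewhere. St5 lay below RN, NSB and St1 and above the CLE arrays (log2 -1.09, SE 0.233, adjusted p = 0.00388). Sema4f read 6.26 and 6.39 in St5 and from 6.74 over 8.40 to 10.00 elsewhere. It was 2.42-fold lower, with every other array above St5 (log2 -1.27, SE 0.362, adjusted p = 0.0385). Of the receptors, Epha5 was undetected in St5 at 5.23 and 5.16 and read from 5.84 over 7.36 to 8.12 elsewhere. St5 was at least 2.77-fold lower (fitted log2 -2.04, SE 0.209, adjusted p = 4.93e-07). Epha7 read 6.14 and 6.27 in St5 and from 5.75 over 7.28 to 7.79 elsewhere. Every other E8.5 array that detected Epha7 lay above St5, and the CLE arrays did not detect it (fitted log2 -1.16, SE 0.286, adjusted p = 0.0131). Dimmer probes of Nrp1 (a fitted 2.5), Epha5 (a fitted -1.85) and Slit2 (a fitted -1.32, adjusted p = 0.0295) were called in the same directions, the latter pair undetected in St5. A Plxnc1 probe was also called lower, but RN replicate 2 was the only array that detected it and the one through which it was kept, so no difference is given, and the brightest Plxnc1 probe was not called.

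Within batch 1, against RN, NSB and St1 only, the differences were 4.63 for Unc5c, 2.92 for Efna1, 2.33 for the Nrp2 probe, 2.10 for Nrp1, 2.04 for Plxnd1, 1.18 for Sema3f, -0.94 for Sema3a, -1.17 for Sema4f, -1.31 for Epha7, -1.63 for Slit2, -1.75 for Epha5 and -3.06 for Sema3e, all called, and the brightest Nrp2 probe was called too (0.61, adjusted p = 4.09e-04). The calls of Unc5c, Efna1, Nrp1, Plxnd1, the dimmer Nrp2 probe, Sema3e and Epha5 held without each array that could be left out. Without St5 replicate 1 or St5 replicate 2 those of Sema3f (1.68, adjusted p = 0.0731 and 1.39, 0.218, by the other probe 1.78, 0.0919 and 1.61, 0.174), Sema3a (-1.17, 0.113 and -1.27, 0.0757) and Epha7 (-1.10, 0.171 and -1.23, 0.109) ended, that of Slit2 ended without St5 replicate 1 (-0.93, 0.137), and that of Sema4f without any array of St5, St1, NSB replicates 1 and 2, RN or the E9.5 CNH (-1.21 to -1.34, up to 0.32). The call of the dimmer Slit2 probe ended without St5 replicate 1 (-1.24, 0.284), St5 replicate 2 (-1.40, 0.187), NSB replicate 1 (-1.17, 0.123), St1 replicate 2 (-1.29, 0.0517) or RN replicate 2 (-1.27, 0.0547), without a batch term (-0.85, 0.563) or the filter (-1.32, 0.0576), or with the BeadChip effect (-1.02, 0.0841). That of the Plxnc1 probe ended without any 1 of 15 arrays (adjusted p up to 0.342), those of batch 1 other than RN, the E9.5 CNH, PP and CLE replicate 3. The 19 called probes became 11 without St5 replicate 1 and 12 without St5 replicate 2. Without a batch term Epha7 (-0.81, 0.125) and the Plxnc1 probe (0.0696) were not called. Sema4f was not called without background correction (-0.82, 0.0704) or the filter (-1.27, 0.0742), with cyclic loess (-1.31, 0.0592) or with the replicate block (-1.25, 0.0639), and the Plxnc1 probe fell short of the fold without background correction.

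All 6 genes of the posterior streak and lateral mesoderm list were higher in St5 (Tbx4 by 5.36, Foxf1a by 4.42, Hand1 by 4.02, Bmp4 by 3.38, Mixl1 by 3.36 and Evx1 by 1.10), with summed intensities of 19500 and 21000 in St5 and from 1580 over 6080 to 9270 elsewhere. Of the endothelium list 5 of 8 were higher (Sox18 by 2.78, Tek by 2.58, Cdh5 by 2.38, Flt1 by 2.12 and Esam by 2.11), at sums of 2370 and 2720 against 352 to 831, and Cdh5 was undetected on the other 10 arrays. Members of other lists were lower in St5. Of the notochord and node list 3 of 6 were (Noto by a fitted -2.41, Nog by a fitted -2.24 and Chrd by -1.91). The sums of that list, 5660 and 6040, lay inside the range elsewhere, 2950 to 14300. Of the neural list 3 of 6 were lower (Sox2 by -2.62, Olig3 by -1.68 and Nkx6-1 by -1.41, all fitted and undetected in St5). Its sums were 203 and 205 against 354 to 1340. Meox1 (-2.08) and Sox9 (-1) were lower and Ets1 (3.81) higher. The part of these tissues in the guidance gene differences, up or down, was not tested. Of the other guidance pathway genes 5 of 32 were lower in St5, Rgma (-2.62), Nrcam (-2.07), Chn2 (-1.96), Dpysl4 (-1.67) and Dpysl5 (-1.40), both relatives of the semaphorin effector Crmp1, and none was called higher in limma.

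The promoters of the members with the largest differences each way in St5, Unc5c and Efna1 above and Sema3e and Epha5 below, are shown because these genes moved together or apart in a single region. They are the RefSeq sequences of GRCm38.p6 from 250 bases before to 50 after each start site, 300 bases in all, for Unc5c at chr3:141465314-141465613 on the plus strand, the Efna1 starts at chr3:89280902-89281201 and chr3:89279596-89279895 on the minus strand, Sema3e at chr5:14025026-14025325 on the plus strand and Epha5 at chr5:84417333-84417632 on the minus strand. Capitals mark matches, on either strand, to the T-box motif AGGTGT, the TCF and LEF site CTTTGA and the GC-rich SMAD site GGCGCC. Unc5c holds 1 T-box match and 1 SMAD match, the second listed Efna1 start 1 SMAD match, Sema3e 1 TCF and LEF match, and Epha5 and the first listed Efna1 start none. Of all 32851 promoters of this length 13.7% hold AGGTGT, 16% CTTTGA and 11.9% GGCGCC, and of the 63 promoters found for 48 of the 52 kept genes 6, 5 and 14 do. A match is a description and not a site of binding. The position in each Efna1 label below is the upstream end of its window, 250 bases before the start site, and not the start site itself.
Unc5c: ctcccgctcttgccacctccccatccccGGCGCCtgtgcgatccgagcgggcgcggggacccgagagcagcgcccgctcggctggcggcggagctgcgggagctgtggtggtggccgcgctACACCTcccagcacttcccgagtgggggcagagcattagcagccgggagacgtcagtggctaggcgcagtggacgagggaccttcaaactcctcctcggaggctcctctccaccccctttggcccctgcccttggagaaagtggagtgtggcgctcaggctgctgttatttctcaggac
Efna1 start at 89281201: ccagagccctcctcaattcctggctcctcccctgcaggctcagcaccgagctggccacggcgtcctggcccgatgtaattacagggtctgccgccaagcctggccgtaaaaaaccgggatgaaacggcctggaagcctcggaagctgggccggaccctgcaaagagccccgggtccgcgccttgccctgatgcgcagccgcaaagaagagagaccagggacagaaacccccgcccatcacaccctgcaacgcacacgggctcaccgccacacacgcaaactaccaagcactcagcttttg
Efna1 start at 89279895: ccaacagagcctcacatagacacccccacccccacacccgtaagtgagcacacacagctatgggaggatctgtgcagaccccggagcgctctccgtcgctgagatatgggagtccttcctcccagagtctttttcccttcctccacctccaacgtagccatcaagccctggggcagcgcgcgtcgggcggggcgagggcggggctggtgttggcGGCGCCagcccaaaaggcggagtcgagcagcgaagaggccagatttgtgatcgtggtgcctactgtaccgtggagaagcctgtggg
Sema3e: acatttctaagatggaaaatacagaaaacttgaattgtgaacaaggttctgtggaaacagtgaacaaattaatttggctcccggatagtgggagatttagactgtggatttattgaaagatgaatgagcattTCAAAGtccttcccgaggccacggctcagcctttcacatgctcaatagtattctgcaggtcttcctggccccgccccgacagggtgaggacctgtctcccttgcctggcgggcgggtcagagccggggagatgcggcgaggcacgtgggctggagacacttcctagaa
Epha5: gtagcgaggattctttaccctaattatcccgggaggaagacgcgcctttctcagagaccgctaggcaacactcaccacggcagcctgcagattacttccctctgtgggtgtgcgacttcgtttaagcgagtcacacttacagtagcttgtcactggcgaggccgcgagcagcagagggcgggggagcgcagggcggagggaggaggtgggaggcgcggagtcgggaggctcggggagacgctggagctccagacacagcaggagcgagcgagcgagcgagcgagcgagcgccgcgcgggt

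The caudal lateral epiblast, which holds neuromesodermal progenitors, had high Epha5 and low Slit2 and Nrp1. Of the 87 guidance probes, 2 (2.30%, both of Epha5, the dimmer detected on 1 of 3 CLE arrays) were called higher in CLE and 3 (3.45%) lower, where 0.101% and 0.912% of all kept probes were. The median log2 difference was -0.11 over guidance probes and 0.01 over all. Epha5 read 8.12, 7.83 and 7.62 in CLE and from 5.16 over 6.55 to 7.65 on the other 9 arrays. The CLE arrays overlapped with St1 (7.59 and 7.65) and lay above the rest, and St5 did not detect it (fitted log2 1.89, SE 0.313, adjusted p = 0.00166). Efna1, a ligand of Epha5, read 9.13, 9.13 and 9.10 in CLE and from 6.48 over 8.00 to 11.02 elsewhere. Its CLE values stood within the range of the others and the difference was not called (0.44, SE 0.404, adjusted p = 1).

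Slit2 read 8.03, 7.89 and 7.45 in CLE and from 8.36 over 10.36 to 10.88 elsewhere. CLE lay below every other array, 3.59-fold (log2 -1.84, SE 0.349, adjusted p = 0.00572). Nrp1 read 7.61, 6.85 and 6.44 in CLE and from 7.64 over 8.04 to 10.18 elsewhere. It was 3.71-fold lower, with the highest CLE array just under the lowest of the others (log2 -1.89, SE 0.454, adjusted p = 0.0427). Part of that fold comes from the high Nrp1 of St5, which is in the mean of the others. The fitted levels were -1.65 in CLE, -0.48 in NSB, -0.42 in St1, 0.01 in RN and 1.86 in St5. Unc5c was undetected in CLE (4.74, 4.77 and 4.58) and, St5 aside, on all other E8.5 arrays as well. The groups overlapped, and the call (adjusted p = 0.0352) came with 2 of the 9 other arrays detected, both of St5, so it shows high Unc5c in St5 and no decrease in CLE.

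Within a batch, CLE can be compared with NSB replicate 3 only, where the differences were 1.26 for Epha5, 1.16 for Efna1, -2.74 for Slit2, -1.50 for Nrp1 and -0.74 for Unc5c, and none was called (adjusted p from 0.224 to 1). The calls of Slit2 and of the brightest Epha5 probe held without each array that could be left out. With cyclic loess normalisation the brightest Epha5 probe (1.59, adjusted p = 0.321), Nrp1 (-1.87, 0.207) and Unc5c (-1.63, 0.142) were not called. Nrp1 and Unc5c were also not called without background correction (-1.36, 0.0878 and -1.05, 0.101) or with the replicate block (-1.91, 0.0922 and -1.57, 0.112). The Nrp1 call ended without any 1 of 24 arrays (all of batch 1, P, PP and E12.5, the E9.5 CNH, CLE replicates 2 and 3 and E11.5 CNH replicates 1 and 2), with a value of -1.63 without CLE replicate 3 (0.117) and an adjusted p of up to 0.136, and that of Unc5c without any 1 of 12 (-1.50 without NSB replicate 1, 0.162), namely CLE replicates 2 and 3, the E9.5 CNH, both E10.5 regions, St1 replicate 1, St5 replicate 2 and RN replicate 2. The dimmer Epha5 probe read 6.25, 6.45 and 7.35 in CLE, where the last array alone detected it, and 7.91 and 7.54 in St1, so it does not show a higher level in CLE and no difference is given. Its call (adjusted p = 0.0333) ended without NSB replicate 1 (0.101), NSB replicate 2 (0.0972), RN replicate 1 (0.0544), St1 replicate 2 (0.055), St5 replicate 2 (0.058) or CLE replicate 3 (0.0852), without background correction (0.141) or a batch term (0.684), with cyclic loess (0.955) or with the BeadChip effect (0.358). The 5 called probes became 2 without NSB replicate 1, St5 replicate 2 or CLE replicate 3, and 3 without St1, RN, NSB replicate 2, the E10.5 arrays or the E9.5 CNH, each array singly.

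Some markers of other tissues were low in CLE, the one E8.5 region from which the underlying mesoderm and endoderm had been removed. Foxa2 (-2.73), Shh (-4.70), Sox18 (-2.46), Hbb-bh1 (-4.44) and Ttr (-4.20), all fitted, were called lower and were undetected on all 3 CLE arrays. Tbx4 (-2.08) and Sox9 (-3.27) were lower as well. Here and for the other marker lists, a difference from arrays that did not detect the gene is a fitted value. In count, this was 2 of 6 notochord and node genes (summed intensity from 2950 over 3350 to 6930 in CLE and from 5660 over 10600 to 14300 elsewhere), 1 of 6 of the posterior streak list, 1 of 8 of endothelium, 1 of 6 of blood, 1 of 7 of visceral endoderm and 1 of 2 of neural crest. The part of these tissues, and of the dissection, in the lower Slit2 and Nrp1 was not tested. Of the other 32 guidance pathway genes tested none was called in limma.

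In the tail bud the chordoneural hinge, where neuromesodermal progenitors lie next to the end of the notochord, was compared with the tissue posterior to it, as the mean of the differences at E9.5, E10.5 and E11.5. A single guidance gene was called, Efnb1, a transmembrane ligand of EphB receptors, and it was higher in the hinge. Of the 87 guidance probes, 1 (1.15%) was called higher, where 0.497% of all kept probes were, and 0 were called lower, where 0.101% were. The median log2 difference was -0.03 over guidance probes and 0.00 over all. Efnb1 read 8.86 and 8.80 in the CNH and 7.30 and 7.80 in the P-CNH at E9.5, 8.83 and 8.80 against 7.84 and 7.74 at E10.5, and 8.44, 7.98 and 8.51 against 8.67 and 7.72 at E11.5. The hinge was above the posterior tissue on every array at E9.5 and E10.5 and overlapped with it at E11.5, and the mean difference was 1.86-fold (log2 0.89, SE 0.184, adjusted p = 0.0166). The difference of Efna1 was -0.55 and was not called (adjusted p = 0.42).

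Within batches, the Efnb1 difference was 0.98 in batch 1 (E10.5, adjusted p = 0.00308), 1.48 in batch 2 (E9.5, 0.224) and 0.33 in batch 3 (E11.5, 1), and within batch 1 the E10.5 contrast alone called 14 of 72 guidance probes, where it called 2.96% of all probes kept in that batch. The call ended without E10.5 CNH replicate 1 (0.89, adjusted p = 0.0634), E10.5 P-CNH replicate 2 (0.88, 0.0623), replicate 1 or 2 of the E9.5 CNH (0.88, 0.0616 and 0.90, 0.0509), replicate 1 of the E9.5 P-CNH (0.82, 0.163) or E11.5 CNH replicate 3 (0.88, 0.0526), and it held under all 8 other settings. Whether the difference between hinge and posterior tissue changed with stage was tested in limma as an interaction, which called 0 of the 87 guidance probes and 0.0276% of all kept probes, with 9 guidance probes, and 3.61% of all probes, at an unadjusted p under 0.05. Of the notochord and node list 3 of 6 genes were higher in the hinge (Shh by 5.13, Noto by 3.26 and Foxa2 by 2.43, the last undetected in the P-CNH), with summed intensities from 14700 over 16600 to 22700 in the hinge and from 6700 over 12200 to 19200 behind it. Sox9 (1.51) and Meox1 (1.37) were higher as well. Their part in the Efnb1 difference was not tested.

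The E10.5 hinge is the later counterpart of the node-streak border, and some guidance genes differed between the pair of stages. The receptors Epha5 and Ephb1 and the ligand Efnb1 were lower at E10.5, while Plxnd1, Sema5b, Sema3f and Efna1 were higher. Among the 87 guidance probes, 7 (8.05%) were called higher and 4 (4.60%) lower, where 3.54% and 3.60% of all kept probes were. Over guidance probes and over all probes the median log2 difference was -0.01.

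Among the ligands, Efna1 read 9.39 and 9.82 in the E10.5 CNH and 7.99, 7.94 and 8.00 in NSB. It was 3.12-fold higher in the hinge with no overlap (log2 1.64, SE 0.306, adjusted p = 8.03e-04). Sema3f read 10.29 and 10.64 in the hinge and 8.39, 8.38 and 8.78 in NSB. It was 4.23-fold higher, likewise without overlap (log2 2.08, SE 0.427, adjusted p = 0.00213). Sema5b, a transmembrane semaphorin, read 7.56 and 7.76 in the hinge and was undetected in NSB at 5.15, 5.33 and 6.21. It was at least 3.39-fold higher (fitted log2 2.42, SE 0.649, adjusted p = 0.0206). Efnb1 read 8.83 and 8.80 in the hinge and 10.14, 9.71 and 9.21 in NSB. All NSB arrays lay above the hinge, 2.16-fold (log2 -1.11, SE 0.308, adjusted p = 0.0253).

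Among the receptors, Plxnd1 read 8.63 and 9.05 in the hinge and 6.40, 6.49 and 7.55 in NSB. It was 5.28-fold higher in the hinge without overlap (log2 2.40, SE 0.419, adjusted p = 3.92e-04). Epha5 was undetected in the hinge at 4.84 and 4.89 and read 7.00, 7.13 and 6.55 in NSB. It was at least 2.43-fold lower (fitted log2 -2.20, SE 0.237, adjusted p = 6.87e-07). Ephb1 read 6.11 and 6.62 in the hinge and 8.52, 8.46 and 8.33 in NSB. It was 4.36-fold lower with no overlap (log2 -2.12, SE 0.417, adjusted p = 0.0014). For Ephb4, a receptor of Efnb2 known from veins, a dimmer probe read 11.31 and 11.25 in the hinge and 10.19, 10.26 and 10.90 in NSB. That probe was called higher (1.05, SE 0.257, adjusted p = 0.0104), and the brightest Ephb4 probe was not (0.69, adjusted p = 0.225). A dimmer Nrp2 probe, at 6.27 and 6.11 in the hinge and undetected in NSB, was at least 1.22-fold higher (fitted log2 1.23, adjusted p = 0.048), but the brightest Nrp2 probe, detected on all these arrays, showed no rise (-0.06, adjusted p = 1, and -0.07 within batch 1). Dimmer probes of Sema3f (2.32) and Epha5 (fitted -1.87, undetected in the hinge) were called as well.

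Within batch 1, which leaves out NSB replicate 3, the differences were 2.47 for Sema5b, 2.30 for Plxnd1, 2.05 for Sema3f, 1.59 for Efna1, -1.10 for Efnb1, -2.05 for Ephb1 and -2.33 for Epha5, all called, as was the brightest Ephb4 probe (0.73, adjusted p = 0.002). The Plxnd1, Sema3f, Efna1, Epha5 and Ephb1 calls held without each array in turn. That of Sema5b ended without NSB replicate 1 (2.33, adjusted p = 0.154), NSB replicate 2 (2.51, 0.103), E10.5 CNH replicate 1 (2.52, 0.101) or E10.5 CNH replicate 2 (2.31, 0.152), that of Efnb1 without NSB replicate 1 (-0.90, 0.325), E10.5 CNH replicate 1 (-1.13, 0.137) or E10.5 CNH replicate 2 (-1.10, 0.156), that of the Ephb4 probe without the same 4 arrays as Sema5b (1.01 to 1.09, up to 0.0983) and that of the Nrp2 probe without any 1 of 25 arrays, all of batch 1, E7.5 and E9.5, E11.5 CNH replicate 2 and CLE replicate 3 (1.12 to 1.34, up to 0.314). Without a batch term Efnb1 (-0.88, 0.105), the Ephb4 probe (0.83, 0.281) and the Nrp2 probe (1.39, 0.111) were not called, without the filter Sema5b (2.42, 0.0521) and the Nrp2 probe (1.23, 0.0877) were not, and without background correction the Nrp2 probe was not (0.59, 0.197). The 11 called probes became 7 without NSB replicate 1, E10.5 CNH replicate 1 or E10.5 CNH replicate 2. Of the blood list 3 of 6 genes were higher in the hinge (Hbb-y by 8.54, Hba-x by 5.63 and Hbb-bh1 by 4.98, summed intensity 28700 and 29500 against 961 to 1720), and of the endothelium list 2 of 8 (Emcn by 4.13 and Cdh5 by 1.98, both undetected in NSB, summed intensity 1470 and 2030 against 661 to 740). Ets1 was higher too (3.20), and Nkx6-1 (-1.96), Olig3 (-1.38) and Otx2 (-1.06) of the neural list, Ttr (-3.40) and Amn (-2.61) of the visceral endoderm list and Tbx4 (-1.24) were lower. Their part in the guidance gene differences was not tested. Of the 32 other guidance pathway genes Dpysl2 was higher (0.76), and Rgma (-2.38) and Nrcam (-1.28) were lower.

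As the tail bud neared the end of elongation, some guidance genes of the hinge changed in level. The E12.5 and E13.5 hinges were set against those of E9.5 and E10.5. The ephrin-A receptors Epha1 and Epha2 and the Robo receptors Robo1 and Robo4 fell, and Epha3, Ephb1, Unc5c, Sema5a and Sema3a rose. Of the 87 guidance probes, 8 (9.20%) were called higher at the late stages and 6 (6.90%) lower, where 3.69% and 1.99% of all kept probes were. The median log2 difference was -0.07 over guidance probes and -0.05 over all.

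Among the ligands, Sema5a, a transmembrane semaphorin, read 9.52 and 9.57 at E9.5, 10.05 and 9.80 at E10.5, 11.33 and 10.31 at E12.5 and 11.83 and 12.17 at E13.5. Every late array lay above every early one, 2.75-fold (log2 1.46, SE 0.372, adjusted p = 0.0193). Sema3a read 8.71 and 8.81 at E9.5, 7.74 and 7.99 at E10.5, 9.04 and 9.28 at E12.5 and 9.02 and 10.20 at E13.5. The late arrays were all higher, 2.24-fold (log2 1.16, SE 0.297, adjusted p = 0.02). For Slit2 a dimmer probe, undetected at E9.5 and on E13.5 replicate 2, was called higher at the late stages with overlap (fitted 1.38, adjusted p = 0.0347) and the brightest was not (0.51, adjusted p = 0.31).

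Of the receptors that rose, Epha3 was undetected in the hinge at E9.5 (4.70 and 4.76) and E10.5 (4.68 and 4.73) and read 6.29 and 5.67 at E12.5 and 6.60 and 7.41 at E13.5. No array outside these 4 late ones detected it, and it was at least 1.5-fold higher (fitted log2 1.66, SE 0.207, adjusted p = 1.64e-05). The probe was kept through these late arrays alone, so the filter favoured it for the group in which it is high, and the call held with no filter, when all probes of the array were tested. The other Epha3 probes were detected on no array, the late hinge included, so the rise rests on the kept probe alone. Unc5c was undetected at E9.5 (4.51 and 4.51), E10.5 (4.62 and 4.67) and E12.5 (5.10 and 4.88) and read 7.90 and 8.66 at E13.5. The rise was seen on the E13.5 arrays alone. Over the 2 late stages it was 1.66-fold by the means, no strict bound since the E12.5 arrays did not detect Unc5c (fitted log2 1.83, SE 0.275, adjusted p = 1.45e-04). A further kept Unc5c probe was undetected on every hinge array and showed no rise. Its fitted levels were -0.16 at E9.5, 0.08 at E10.5, -0.44 at E12.5 and -0.35 at E13.5. Ephb1 read 6.03 and 6.34 at E9.5, 6.11 and 6.62 at E10.5, 7.98 and 6.44 at E12.5 and 8.96 and 8.81 at E13.5. It was higher late, with E12.5 replicate 2 inside the early range and 1 early array not detecting it (fitted log2 1.85, SE 0.390, adjusted p = 0.00444).

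Of the receptors that fell, Epha1 read 11.29 and 11.43 at E9.5, 10.88 and 10.88 at E10.5, 9.26 and 10.48 at E12.5 and 8.54 and, undetected, 6.23 at E13.5. It was lower late without overlap (fitted log2 -2.80, SE 0.540, adjusted p = 0.00198). Epha2 read 9.63 and 9.65 at E9.5, 9.15 and 9.00 at E10.5, 8.35 and 8.83 at E12.5 and 7.66 and, undetected, 4.66 at E13.5. It was lower too, and again the groups did not overlap (fitted log2 -2.60, SE 0.670, adjusted p = 0.0209). Robo4 read 9.57 and 9.17 at E9.5, 9.93 and 10.19 at E10.5, 7.92 and 7.86 at E12.5 and 9.19 and 9.38 at E13.5. Its low values were those of E12.5, and E13.5 overlapped with E9.5 (2.64-fold, log2 -1.40, SE 0.364, adjusted p = 0.022). Robo1 read 9.55 and 9.57 at E9.5, 9.03 and 9.23 at E10.5, 8.31 and 8.13 at E12.5 and 8.94 and 8.66 at E13.5. The late arrays were all lower, 1.84-fold (log2 -0.88, SE 0.243, adjusted p = 0.0329).

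**Figure D4:**
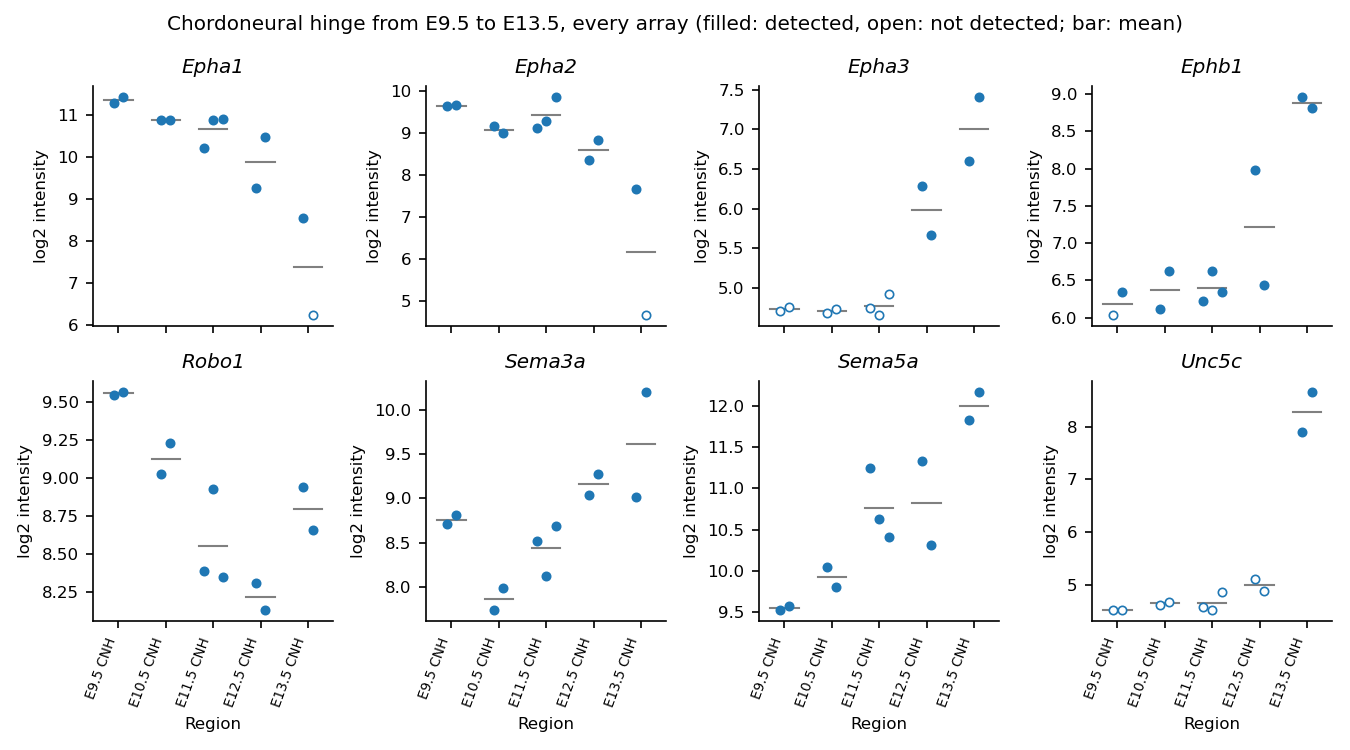
Log2 intensity (y axis) of Epha1, Epha2, Epha3, Ephb1, Robo1, Sema3a, Sema5a and Unc5c in the chordoneural hinge by embryonic day (x axis), 1 point per array, filled where the probe was detected and open where it was not. Epha1 and Epha2 fall to their lowest values on E13.5 replicate 2, where neither was detected, while Epha3 is detected from E12.5 and Unc5c at E13.5.

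Within batch 2, where the late hinges can be set against E9.5 only, the differences were 2.13 for Ephb1, 2.08 for Sema5a, 1.66 for Unc5c, 1.32 for Epha3, -0.93 for Robo1, -1.62 for Epha2 and -2.50 for Epha1, all called, and 0.28 for Sema3a (adjusted p = 0.377) and -0.81 for Robo4 (0.183). For Slit2 both the dimmer (1.22) and the brightest probe (1.11, adjusted p = 0.0205) were called there. The Epha2 difference was -1.63 without E13.5 replicate 2 (adjusted p = 0.0445) and -3.58 without E13.5 replicate 1, and the Epha1 difference -2.12 and -3.48. The calls of Epha3, Ephb1 and the brightest Unc5c and Epha1 probes held without each array that could be left out and under all 8 other settings, though in these the Epha3 difference was as low as 0.83 and that of Unc5c 1.03. The other called Epha1 probe (fitted -2.71), undetected on both E13.5 arrays, was lost with cyclic loess (-1.99, 0.122), with the replicate block (-2.05, 0.128), without E12.5 replicate 1 (-2.40, 0.0816) or without the 2 arrays with the fewest detected probes (-2.51, 0.0533). The remaining kept Epha1 probes had lower fitted levels late as well but were not called. The other called Unc5c probe, undetected on every early array and at E12.5 (1.49-fold by the means, no strict bound, fitted 2.06), was lost with cyclic loess (1.02, 0.0636). A further Sema5a probe (1.29) was lost with the BeadChip effect (1.04, 0.0729), the replicate block (1.20, 0.128) or no filter (1.29, 0.0644) and without any 1 of 19 arrays, all of batch 1 and E9.5, E12.5 replicate 1, E13.5 replicate 2 and PP replicate 1 (1.02 to 1.36, up to 0.155). A further Robo1 probe was called lower, but only 1 late array and no early one detected it, so no difference is given, and its call was lost with cyclic loess (adjusted p = 0.15), without a batch term (0.383) or with the BeadChip effect (0.377). Other calls ended for Epha2 without NSB replicate 1 (-2.57, 0.0532), E10.5 replicate 1 (-2.56, 0.052), E9.5 replicate 2 (-2.59, 0.0508) or E12.5 replicate 1 (-2.55, 0.0587), for Sema5a without E10.5 replicate 2 (1.39, 0.0595), E12.5 replicate 1 (1.33, 0.074) or E13.5 replicate 2 (1.19, 0.0644), and for Sema3a without E9.5 replicate 1 (1.14, 0.0551), E10.5 replicate 1 (1.10, 0.0605), E12.5 replicate 1 (1.06, 0.0754), E13.5 replicate 2 (0.99, 0.0605) or NSB replicate 2 (1.11, 0.0587). The Robo4 call ended without NSB replicate 1 (-1.38, 0.0567), E9.5 replicate 1 (-1.30, 0.0751), E10.5 replicate 2 (-1.34, 0.0661) or E12.5 replicate 1 (-1.42, 0.0509), that of Robo1 without either array of E9.5 or E10.5, E12.5 replicate 1 or NSB replicate 1 or 2 (-0.83 to -0.93, up to 0.0967), and that of the Slit2 probe without either of E9.5 or E10.5, E12.5 replicate 2, E13.5 replicate 1 or NSB replicate 1 (1.16 to 1.41, up to 0.118). Among the other settings, a random BeadChip effect in place of the batch term ended the calls of Sema3a (0.80, 0.124), Epha2 (-1.99, 0.0693) and the Slit2 probe (0.69, 0.452), and cyclic loess those of Sema3a (1.12, 0.0933) and the Slit2 probe (1.03, 0.0713). Sema3a was also not called without the 2 arrays with the fewest detected probes (0.98, 0.064). The replicate block ended those of Sema3a (1.11, 0.0811), Sema5a (1.31, 0.0953), Epha2 (-2, 0.146), Robo1 (-0.68, 0.192), Robo4 (-1.46, 0.0551) and the Slit2 probe (1.39, 0.1), which was also lost without a batch term (0.55, 0.412) or the filter (1.38, 0.0537). The 14 called probes became 9 without NSB replicate 1, E9.5 replicate 1, E10.5 replicate 1, E10.5 replicate 2 or E12.5 replicate 1, and 21 without E13.5 replicate 1.

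Of the surface ectoderm list 3 of 6 genes were higher in the late hinge (Krt14 by 4.81, Trp63 by 4.22 and Cldn4 by 2.00), with summed intensities from 1660 over 3020 to 4560 late and from 325 over 411 to 526 early, most of it from Cldn4, and Krt14 was undetected early. Meox1 (1.58) and Olig3 (1.35) were higher, and Mixl1 (-1.74) and Hbb-bh1 (-3.90) lower. Their part in the guidance gene changes was not tested. Of the 32 other guidance pathway genes 4 were higher late, Nrcam (1.94), Srgap3 (1.42), a Robo effector, Farp2 (1.40) and Rgma (1.12), and 3 were lower, Crmp1 (-3.13), a semaphorin effector, Ngef (-2.33), which acts downstream of EphA receptors, and Dpysl4 (-1.67).

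Over the 8 comparisons, 26 of the 52 kept guidance genes (50%) were called at least once, Plxnc1 by a probe detected on 1 array, where 18.9% of the 15556 kept symbols were. A gene counted when any of its kept probes was called. Guidance genes had more kept probes each, 87 for 52 genes against 21712 for 15556 symbols, so the shares are not on equal terms. Efna1 and Unc5c were called in 5 comparisons each, Epha5 and Slit2 in 4, and Ephb1 and Robo4 in 3. The 5 of Unc5c include the CLE call, which shows high Unc5c in St5, and the PP minus P call of a dimmer probe alone. The 4 of Slit2 include the late hinge call of a dimmer probe alone. Of the 26 genes called in none, 16 were also not called in the F test over the regions, among them Efna3, Efna4, Efnb3, Epha4, Plxnb1, Plxnb2, Slit3, Unc5a and Unc5b. The other 10 differed among regions without a call in these contrasts, and the largest absolute difference of the 26 was 1.80, for Sema6b in PP minus P (log2 -1.80, SE 0.495, adjusted p = 0.105). Sema6b read 5.38 and 5.74 in PP, 7.00 and 7.15 in P and 7.47, 7.94 and 7.14 in A, and was undetected on all tail bud arrays.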

How the data were processed

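The authors deposited for each of the 36 arrays the mean bead intensity of 45281 probes, linear and not normalised, and a detection p-value for each probe. Regions, stages and batches were read per the labels. Background was corrected and log2 values were made by limma's neqc (version 3.58.1, under R 4.3.3) with the normexp method, an offset of 16 and quantile normalisation. Kept were the probes that 1 array or more detected at a p-value under 0.01. One linear model in limma held the 16 regions and 3 batches, with 18 residual degrees of freedom. Contrasts were tested two-sided with limma's moderated test, and p-values were adjusted by Benjamini-Hochberg over all 21712 kept probes. The number of arrays, 2 or 3 a region, limits the precision, and where a run left a region with 1 array it was assumed to vary like the others. The pipeline was tested on simulated data.

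In each comparison all called guidance genes are named, with values by array for up to 6 in each direction, and Efna1 is given throughout E7.5 and E8.5. Those with the largest moderated F are described over all regions. The members and the marker lists were chosen with earlier results of these data known. The variance-stabilised and batch-corrected values that the study describes were not used here, and in place of the ComBat package a ComBat-type adjustment was written by hand as 1 of 8 other settings. Promoters and gene names came from RefSeq tables of GRCm38.p6, in which all 52 kept genes were found by name and 48 had a promoter. Figures were drawn in Python 3.11.15 with matplotlib 3.10.9, and NumPy 2.4.6 was used.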

Additional observations from a re-analysis of the deposited data

How the results depend on the processing

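No guidance gene named in the report reversed its direction in a called difference under any alternative that was run. Of the values of single named genes, 555 of 646 kept their side of the threshold under another setting. Of the rest, 88 fell short of it and 3 newly passed it. With 1 array left out 2543 of 2864 kept their side, and within a batch 60 of 79. It was 157 of 162 under the alternatives chosen after seeing the data. These left out the 2 or the 4 arrays with the fewest detected probes. Values that were not called could change sign and still count as kept. The brightest Plxnc1 probe in St5 (-0.01) ran from -0.24 to 0.18 over the settings. Where counts or calls moved, the cause was not tested, and single-batch fits tested fewer arrays.

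The counts of guidance probes called moved by over 1.5 times as follows. For A minus P, the count of 13 became 8 without background correction, 8 without a batch term, 20 with the ComBat-type adjustment, 7 without the detection filter and 25 without the 4 arrays. For PP minus P, the count of 2 became 1 without background correction, 5 with cyclic loess, 4 without a batch term, 9 with the ComBat-type adjustment, 1 with the BeadChip as a random block, 1 without the filter, 1 with the replicate number as a block, 1 without the 2 arrays and 6 without the 4. Neither original call was the 1 that the BeadChip block, the replicate block or the run without the 2 arrays gave. For RN, 9 became 15 with the ComBat-type adjustment, 25 within batch 1 and 21 without the 4 arrays. For St5, 19 became 39 within batch 1 and 35 without the 4 arrays. For CLE, 5 became 2 without background correction, 1 with cyclic loess, 21 without a batch term, 28 with the ComBat-type adjustment, 11 with the BeadChip block, 0 within batch 3 in limma and 16 without the 4 arrays. For CNH minus P-CNH, 1 became 4 with the BeadChip block, 14 within batch 1, 0 within batch 2, 0 within batch 3 and 7 without the 4 arrays. For the E10.5 CNH minus NSB, 11 became 30 within batch 1. For the late minus the early hinge, 14 became 9 with cyclic loess, 24 without a batch term, 31 with the ComBat-type adjustment, 7 with the replicate block, 28 within batch 2 and 28 without the 4 arrays. The 55 probes that differed over all regions became 0 within batch 3, and the interaction, at 0, called 1 without the 4 arrays.

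With each array left out in turn, the counts ran from 52 to 64 over all regions, 4 to 18 for A minus P, 0 to 11 for PP minus P, 2 to 12 for RN, 11 to 21 for St5, 2 to 7 for CLE, 0 to 1 for CNH minus P-CNH, 7 to 12 for the E10.5 CNH minus NSB, 9 to 21 for the late minus the early hinge and 0 to 0 for the interaction. Without E8.5 NSB replicate 3, 5 comparisons (all regions, RN, St5, CLE and the late hinge) could not be fitted.

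Replicates of the same number may share more than the number. In batch 1 all 30 pairs of arrays of different regions with the same replicate number lay on 1 BeadChip, with a median residual correlation of 0.183. The value for pairs of different number, -0.183, is its mirror image by construction and no separate comparison. There the residuals of a region's paired arrays are equal and opposite. In batch 2 all 3 pairs of 1 stage with the same number held the same count of pieces, and 0 of the 3 with different numbers did, and the medians over all pairs of that batch were -0.0587 and -0.0128. In batch 3 the medians were -0.0358 and 0.00422. Whether pools of the same number came from the same embryos is not given, and calls that the replicate block ended are named in the report. The BeadChip block had a consensus correlation of 0.483. The batch term, region and BeadChip overlap heavily in this design, and the fits within a batch have 6, 4 and 3 residual degrees of freedom.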
